A study of Mus musculus with 14 samples.

Results

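The 10 genes described here encode growth factors of the FGF, PDGF and HGF families and their receptor tyrosine kinases: the ligands Fgf2, Fgf7, Fgf10, Pdgfa, Pdgfc and Hgf and the receptors Fgfr1, Pdgfra, Pdgfrb and Met. They were chosen by symbol, with earlier results of these data known. All 10 were found among the 43472 genes listed in each of the 2 tables of normalised counts. Primary fibroblasts from the tail tips of C57BL/6 mice were grown in medium with serum, wounded with a scratch and either left untreated or given autologous micrograft (AMG), a soluble extract of minced mouse skin that was depleted of cells and diluted in growth medium. No transgene or altered allele is given for either group, and the age of the mice and the number of animals behind each replicate are not given in the sources used here. The 14 RNA libraries comprised a time course of replicate 1 (untreated and AMG-treated at 1, 5, 12 and 24 h) in the first table and replicates 2, 3 and 4 of both groups at 5 h in the second. The comparison asks how the transcripts of these ligands and receptors differed between AMG-treated and untreated wounded fibroblasts, at 5 h with replicates and over 24 h in 1 library per group and time.

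As background, FGF ligands bind heparan sulphate and receptor tyrosine kinases at the cell surface. Fgf7 and Fgf10 are made by mesenchymal cells and act mainly on the epithelial splice form of Fgfr2, while Fgf2 is a mitogen for fibroblasts and endothelial cells and Fgfr1 is a main FGF receptor of fibroblasts. PDGF chains form dimers that bring together Pdgfra and Pdgfrb, the receptors through which PDGF drives division and migration of connective tissue cells. The A chain acts on Pdgfra, and the C chain must be cleaved outside the cell before it can bind. HGF, also called scatter factor, is secreted by fibroblasts as an inactive precursor and acts on Met, which is best known from epithelial and endothelial cells. All of these receptors feed the Ras and ERK cascade.

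In the mouse build GRCm38 (mm10, GENCODE annotation) Fgf2 lies at chr3:37348346-37410108, Fgf7 at chr2:126034658-126091185, Fgf10 at chr13:118669791-118792115, Fgfr1 at chr8:25513654-25575718, Hgf at chr5:16553495-16620152, Met at chr6:17463800-17573980, Pdgfc at chr3:81036416-81214040 and Pdgfra at chr5:75152292-75198215, all on the plus strand. Pdgfa lies at chr5:138976014-138997370 on the minus strand. All are protein coding, with merged exon lengths from 3.12 kb for Pdgfa to 10.0 kb for Pdgfra. The exons of Pdgfa share 813 bases (26.1% of their length) with the antisense gene 6330403L08Rik, and those of Fgf2 share 640 bases (9.44%) with Nudt6 on the other strand. The library kit marks strand but the strand setting of the counting was not given in the sources used here, so reads in these shared stretches cannot be assigned with certainty.

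RefSeq promoter sequences of the same build were matched by symbol for 8 of the 10 genes, and the 250 bases before the start site are shown for Fgf10 and Pdgfc, which were lower with AMG at 5 h, for Fgf7, which was higher, and for Met, which was not called. All 4 are given 5′ to 3′ on the plus strand, with capitals marking matches to the motifs searched: Fgf10 at chr13:118714449-118714698, Pdgfc at chr3:81036166-81036415, Fgf7 at chr2:126034408-126034657 and Met at chr6:17463707-17463956.
Fgf10: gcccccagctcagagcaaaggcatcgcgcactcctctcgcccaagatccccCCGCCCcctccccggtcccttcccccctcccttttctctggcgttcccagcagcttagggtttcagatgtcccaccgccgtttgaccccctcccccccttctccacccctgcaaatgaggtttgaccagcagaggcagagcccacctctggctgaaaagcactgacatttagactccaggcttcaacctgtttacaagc
Pdgfc: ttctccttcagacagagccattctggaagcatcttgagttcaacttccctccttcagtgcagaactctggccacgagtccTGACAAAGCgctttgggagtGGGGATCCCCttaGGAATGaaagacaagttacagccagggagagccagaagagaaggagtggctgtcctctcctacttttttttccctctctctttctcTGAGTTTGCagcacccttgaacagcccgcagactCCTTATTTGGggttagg
Fgf7: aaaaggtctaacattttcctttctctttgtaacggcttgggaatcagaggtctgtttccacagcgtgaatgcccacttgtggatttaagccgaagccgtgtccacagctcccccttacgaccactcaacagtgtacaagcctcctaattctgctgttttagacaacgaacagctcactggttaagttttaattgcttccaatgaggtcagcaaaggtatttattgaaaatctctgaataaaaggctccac
Met: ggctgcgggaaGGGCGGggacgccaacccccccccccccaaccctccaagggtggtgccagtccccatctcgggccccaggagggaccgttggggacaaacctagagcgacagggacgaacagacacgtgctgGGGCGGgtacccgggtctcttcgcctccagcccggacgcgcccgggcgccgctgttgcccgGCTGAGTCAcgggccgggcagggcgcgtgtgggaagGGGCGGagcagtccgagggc
The RefSeq start sites of Fgf10 and Met lie inside their GENCODE genes, which begin at positions 118669791 and 17463800.

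The motifs searched on both strands were AP-1 (TGANTCA), CRE (TGACGTCA), the antioxidant response element (ARE, TGANNNNGC), the TATA box (TATAAA), the GC box (GGGCGG), TEAD (GGAATG), NF-kB and the CArG box. An AP-1 match occurred in 1 of the 10 promoters listed for these 8 genes, that of Met, and in 6.75% of all 32851 promoters of this length. In Met it lay 54 to 48 bases before the RefSeq start site, inside the GENCODE gene, and overlapped an ARE match. The Pdgfc promoter held 1 NF-kB match, 1 CArG box, 1 TEAD match and 2 ARE matches, and the shares of all promoters with these motifs were 3.90%, 1.47%, 12.6% and 35.2%. The Fgf10 promoter held 1 GC box (32.7% of all promoters), and that of Fgf7 held none of the 8 motifs. CRE (1.55%) and TATA box (12.4%) letters occurred in none of the 10. A match describes these letters in this window and is not a site of binding.

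Between 12545537 and 34696529 reads per library fell in genes, and 3 reads, taken here as the limit of detection, were worth 1.62 to 4.18 normalised counts in replicates 2 to 4 and 2.20 to 5.22 in replicate 1. The fibroblast markers (10 genes, among them Col1a1, Col1a2 and Dcn) were above 0 in every library, while the keratinocyte keratins Krt5, Krt14 and Krt1 were at 0 in all 6 libraries of replicates 2 to 4. Summed over 10 keratinocyte markers, the normalised count there was 156 to 316 in untreated and 92.6 to 150.1 in AMG-treated libraries, against 447434 to 619292 and 359904 to 463559.9 for the fibroblast markers. Of the 3 keratinocyte markers tested, Dsp and Trp63 were lower with the replicate block described below (adjusted p = 0.00144 and 0.00377, and 0.0917 and 0.129 without it). The third, Krt10, lay on the higher side and was not called (log2 fold change 0.47, adjusted p = 0.251 with the block and 0.568 without it). Of the 10 fibroblast markers, Pdpn was higher in both fits (log2 fold change 1.40, adjusted p = 9.83e-05 with the block and 0.019 without it). No other was called without the block. With it 2 of the 10 were higher and 4 lower, against 17.9% and 19.3% of all genes. The part of these markers in the values given below was not tested. The sums of the endothelial, leukocyte and pericyte and smooth muscle markers overlapped between the groups, the last at 4941 to 9261 in untreated and 4150.2 to 7800.2 in AMG-treated libraries. Cspg4, at 2575 to 8277 in untreated libraries, was the largest part of the last. Of 5 pericyte and smooth muscle markers tested, the block called Myh11 (log2 fold change -0.49, adjusted p = 0.00459) and Notch3 (-1.51, 0.0062) lower. It called none higher, and without it neither passed (0.553 and 0.449). The 1 endothelial marker tested, Tek, was lower with the block alone, and no leukocyte marker was called. The part of these markers was not tested either. The cultures of replicate 3 stood apart: Thy1 was at 14712 (untreated) and 14412 (AMG-treated) in replicate 3 and between 1068 and 1723 in replicates 2 and 4. In replicate 1, ribosomal protein genes took 7.01% of the reads of the untreated 5 h library and 5.11% of those of the AMG-treated 1 h library, against 2.28% to 3.48% in the other 12, and both had relatively fewer reads from long genes than the library they were compared with (Spearman rho of the log2 ratio with exon length -0.43 at 1 h and 0.42 at 5 h). Ratios of replicate 1 at 1 and 5 h rest on these libraries. In replicates 2 to 4 this share was 2.28% to 2.82% in untreated and 3.16% to 3.48% in AMG-treated libraries, and the 10 most abundant genes took 8.42% to 11.2% and 6.54% to 7.53% of the reads, so that both measures separated the groups without overlap, and their part in the 5 h differences was not tested. In bulk RNA, fewer cells of a type and less RNA per cell cannot be told apart.

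Per kb of exon, the untreated fibroblasts at 5 h held most Pdgfrb (1608 ± 423 normalised counts per kb, mean ± SD, n = 3) and Fgf7 (1562 ± 180.2), whose ranges overlapped. Pdgfc (534 ± 22.0), Fgfr1 (374 ± 54.1) and Pdgfa (307 ± 64.4) followed, and of these neighbours only Fgfr1 and Pdgfa overlapped. Below a gap, Fgf10 (127 ± 49.9), Pdgfra (86.4 ± 19.1), Fgf2 (51.3 ± 22.7), Hgf (40.2 ± 28.2) and Met (38.7 ± 13.5) formed the low end, each overlapping the next. In AMG-treated fibroblasts the order began with Fgf7 (2175 ± 368) above Pdgfrb (948 ± 68.3) without overlap, and Fgf10 (37.8 ± 14.0) stood between Met (40.9 ± 21.1) and Fgf2 (29.5 ± 10.6), overlapping both. The lowest read count of any of the 10 genes in any library was 75, that of Hgf in AMG-treated replicate 2, so all were measured well above the limit of detection.

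At 5 h in replicates 2 to 4 the transcripts of Fgf7, Fgfr1 and Pdgfa were higher and those of Fgf10, Pdgfrb, Pdgfc, Hgf, Fgf2 and Pdgfra lower in every AMG-treated library than in the untreated library of the same number, and Met went both ways. The share of all genes with the same sign in these 3 pairs was not counted, and the Pdgfra gap in replicate 3 was small (log2 ratio -0.049). The ligand Fgf10 showed the widest gap, 3.35-fold lower in AMG-treated cells. In the fit without pairing (limma), none of the 10 genes passed an adjusted p of 0.05, whereas 1.24% of the 13096 genes tested did. An unadjusted p under 0.05 was reached by 5 of the 10 and by 23.1% of all genes. edgeR called 0 of the 10 (1.03% of all genes) and DESeq2 called 3 (Fgf10, Pdgfc and Pdgfrb, against 11.2% of all genes). With the replicate number as a block, 9 of the 10 genes passed, 3 higher and 6 lower, against 37.2% of all genes (17.9% higher and 19.3% lower). Since the 10 were chosen with earlier results of these data known, their share is a description and no test of the group. Without replicate 2 in that fit 3 of the 10 passed (10.8% of all genes), 9 passed without replicate 3 (51.9%) and 5 without replicate 4 (20.4%). The same-numbered libraries deviated together from their group means in all 3 pairs (r = 0.65, 0.76 and 0.70), and the p-values measure only the spread between these libraries, which may be technical. Without any model, the 3 AMG-treated values did not overlap the 3 untreated values for 4 genes, Fgf7 (higher) and Fgf10, Pdgfc and Pdgfrb (lower), and 28.7% of all genes showed such a gap (15.1% higher and 13.6% lower).

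Of the FGF ligands, Fgf10, the mesenchymal factor for epithelial buds and hair follicles, had normalised counts of 428, 480.4 and 849 in untreated and 119.6, 245 and 157 in AMG-treated replicates 2, 3 and 4. Every untreated value lay above every AMG-treated value, and replicate 3 had the smallest gap. The log2 fold change was -1.74 (SE 0.35), with a 95% interval of -2.58 to -0.91, an adjusted p of 0.071 and, with the replicate number as a block, 0.00089. Fgf7, the keratinocyte growth factor, stood at 4399, 5442 and 5381 in untreated and 6279, 8439 and 6471 in AMG-treated libraries. All 3 treated values were above the untreated range, with a log2 fold change of 0.47 (SE 0.16) and an adjusted p of 0.161 (0.00608 with the block). Fgf7 and Fgf10, which share their epithelial receptor, thus lay on opposite sides of 0. Fgf2 was at 225, 298 and 520.3 in untreated and 126, 269 and 206 in AMG-treated libraries, where untreated replicate 4 was high and the groups overlapped. Its log2 fold change was -0.77 (SE 0.39), with an adjusted p of 0.279 (0.0187 with the block).

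Among FGF receptors, Fgfr1 was at 3633, 3196 and 4259 in untreated and 5337, 4045 and 5351 in AMG-treated libraries. AMG-treated replicate 3 fell within the untreated range, and each number was higher with AMG. The log2 fold change was 0.41 (SE 0.17), with an adjusted p of 0.211 (0.0079 with the block). Fgfr2, the receptor of Fgf7 and Fgf10 in epithelia and outside the 10 genes, was present at 994, 480.4 and 1045 in untreated and 186, 127 and 195 in AMG-treated libraries. It fell without overlap, with a log2 fold change of -2.25 (SE 0.34) and an adjusted p of 0.0402, and this fit does not separate its splice forms. Leaving out replicate 2 or 4 of either group ended this call, with adjusted p values up to 0.178, as did limma without the trend (0.0681) and the length correction described below (0.0622). In the replicate 1 pair its log2 ratio was -1.21.

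Of the PDGF chains, Pdgfa stood at 1167, 941 and 766 in untreated and 1579, 1138 and 1048 in AMG-treated libraries. Untreated replicate 2 lay above 2 of the AMG-treated values, while each AMG-treated library was above the untreated one of its number. The log2 fold change was 0.39 (SE 0.22), with an adjusted p of 0.323 (0.0137 with the block). Pdgfc was at 2702, 2611 and 2834 in untreated libraries, a tight group, and at 1906, 2282 and 1965 with AMG (2715 ± 112 against 2051 ± 202, mean ± SD, n = 3). The groups did not overlap, and the log2 fold change was -0.41 (SE 0.12), with an adjusted p of 0.121 (0.0115 with the block). Pdgfb, the chain that binds both receptors and is outside the 10 genes, was at 137, 27.8 and 96.3 in untreated and 788, 112 and 851 in AMG-treated libraries. It was far lower in replicate 3 than in the other 2 in both groups, its values overlapped, and its log2 fold change of 2.54 (SE 0.91) had an adjusted p of 0.169 (7.74e-05 with the block).

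Both PDGF receptors were lower with AMG in replicates 2 to 4. Pdgfrb was at 9314, 6277 and 10831 in untreated and 5112, 4868 and 5602 in AMG-treated libraries. The AMG-treated values lay close together below all untreated values, and the log2 fold change was -0.73 (SE 0.21), with an adjusted p of 0.121 (0.00213 with the block). Pdgfra, which marks many fibroblasts, was at 728, 785 and 1084 in untreated and 476, 759 and 619 in AMG-treated libraries. AMG-treated replicate 3 lay within the untreated range, and the log2 fold change of -0.49 (SE 0.23) had an adjusted p of 0.251 (0.0271 with the block). In these libraries long genes were on the whole lower with AMG (Spearman rho of the log2 ratio with exon length -0.32, -0.21 and -0.39 across genes, which are not independent replicates), and Pdgfra has the longest exons of the 10. After a correction for length its log2 fold change was -0.26 and the block no longer called it (adjusted p = 0.128), while Fgfr1, of nearly the same length, moved to 0.64 (adjusted p = 0.000817 with the block).

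Hgf and Met varied more between replicate numbers than between groups. Hgf was at 173, 524 and 171 in untreated and 95.4, 334 and 85.8 in AMG-treated libraries, with replicate 3 well above the others in both groups. Each number was lower with AMG, and the log2 fold change of -0.83 (SE 0.64) had an adjusted p of 0.465 (0.0045 with the block). Met was at 302, 191 and 398 in untreated and 391, 128 and 425 in AMG-treated libraries, lowest in replicate 3 in both groups, the replicate in which Hgf was highest. Its log2 fold change was -0.037 (SE 0.50) with a 95% interval of -1.23 to 1.15 (-0.45 to 0.38 with the block), and its adjusted p was 0.974 (0.892 with the block). A difference of 2-fold either way lies inside the first interval and outside that of the blocked fit, and neither shows that Met was the same in both groups. The part of the replicate 3 cultures, which also had the high Thy1, in these values was not tested.

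**Figure D1:**
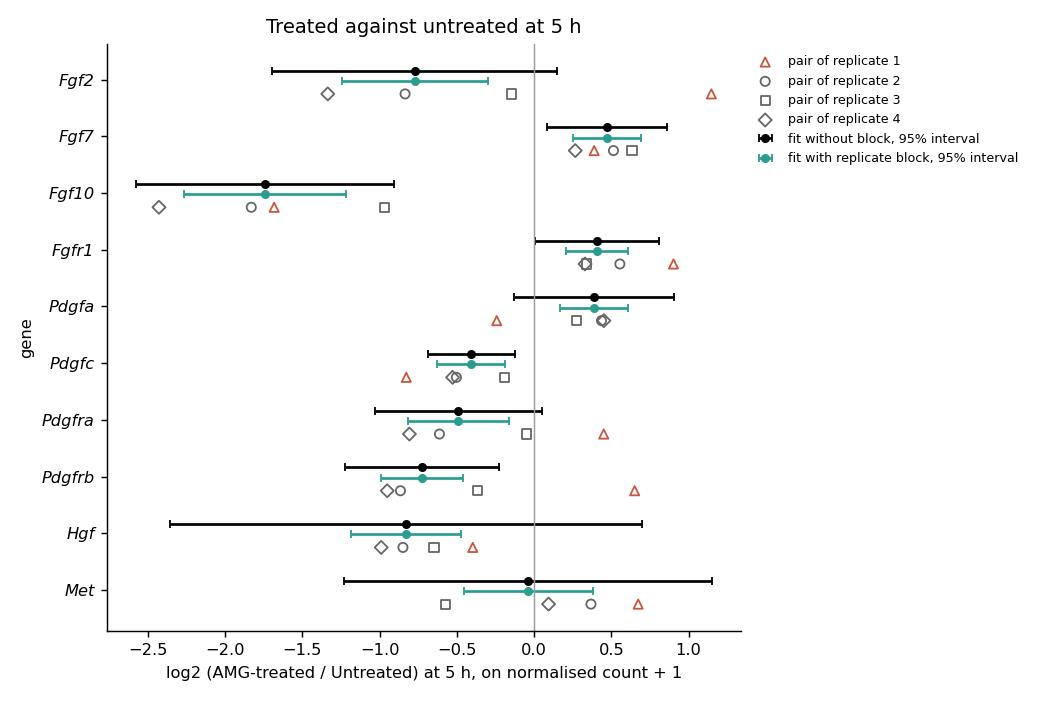
Log2 ratio of AMG-treated to untreated normalised count at 5 h (horizontal axis) for each gene (vertical axis): filled points with bars are the fits to replicates 2 to 4 without (black) and with (green) the replicate block and their 95% intervals, and open symbols are the ratios of the 4 replicate numbers, replicate 1 in red. The block narrows the intervals without moving the points, and the red triangle lies on the other side of 0 from the rest for Fgf2, Pdgfa, Pdgfra and Pdgfrb.

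Replicate 1, scaled in the first table, added another pair at 5 h. The ratio had the same sign in all 4 pairs for 5 genes, Fgf7 and Fgfr1 (higher, as were 15.7% of all genes) and Fgf10, Hgf and Pdgfc (lower, as were 16% of all genes). The log2 ratios of Fgf10 in replicates 1 to 4 were -1.68, -1.83, -0.97 and -2.43, and those of Pdgfc were -0.83, -0.50, -0.19 and -0.53. Those of Fgf7 were 0.39, 0.51, 0.63 and 0.27, a narrow range. The other 5 genes had mixed signs. Pdgfrb had 0.65, -0.87, -0.37 and -0.95, Fgf2 had 1.15, -0.84, -0.15 and -1.34 and Pdgfra had 0.45, -0.61, -0.049 and -0.81, so that replicate 1 alone was higher with AMG. In a fit of all 4 replicates with the block, 1 of the 10 genes was called, Fgf10 (log2 fold change -1.73, adjusted p = 0.0198), against 3.9% of all genes. After a further correction for exon length 3 were called, against 9.04% of all genes, Fgf10 (0.00767), Fgfr1 (0.0267) and Hgf (0.031). The length-corrected 5 h ratio of replicate 1 was -0.0096 for Pdgfra, 0.49 for Pdgfrb and 0.88 for Fgf2, and -1.75 for Fgf10, -0.95 for Pdgfc and -0.70 for Hgf.

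Over 24 h in replicate 1, with no replicate check, Pdgfc was more than 2-fold lower with AMG at 12 and 24 h, and none of the other 9 genes was that far apart at more than 1 time. Its normalised counts at 1, 5, 12 and 24 h were 4846, 5902, 2855 and 3318 in untreated and 5875, 3326, 1097 and 1260.1 in AMG-treated fibroblasts. The log2 ratios were 0.28, -0.83, -1.38 and -1.40, so that AMG-treated cells held more Pdgfc at 1 h and less at each later time, and within the AMG-treated arm the 12 h value was 5.35-fold below that at 1 h. Fgf10 differed at 5 h: it ran at 162, 193, 198 and 158 in untreated and 165, 59.6, 159 and 159 in AMG-treated cells. The ratio was -1.68 at 5 h (± 0.41, 95% counting error) and between -0.32 and 0.030 at the other times.

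Fgf7 was higher with AMG at every time, at 6859, 7758, 5805 and 6281 in untreated and 10751, 10154, 8238 and 8006 in AMG-treated cells, with log2 ratios of 0.65, 0.39, 0.50 and 0.35. Fgfr1 ran at 7291, 3042, 3917 and 4739 in untreated and 4491, 5685, 5827 and 7147 in AMG-treated cells. It was lower with AMG at 1 h and higher from 5 h on (log2 ratios -0.70, 0.90, 0.57 and 0.59), and after the length correction the ratios at 1 and 5 h were -0.33 and 0.45. Pdgfra ran at 2142, 1206, 1807 and 2787 in untreated and 1224, 1649, 3134 and 3822 in AMG-treated cells, with higher counts at each later time from 5 h on in both arms. Pdgfrb ran at 6252, 2936, 4946 and 5852 in untreated and 3481, 4608, 4569 and 4682 in AMG-treated cells, and was less than 2-fold apart at each time. At 1 h the length-corrected ratio was -0.43 for Pdgfra and -0.63 for Pdgfrb, in place of -0.81 and -0.84.

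Fgf2 was highest at 1 h in both arms and lower at every later time, at 676, 141, 187 and 217 in untreated and 598, 313, 198 and 162 in AMG-treated cells. The untreated 5 h value was the lowest of the 8 and came from a library rich in ribosomal protein reads. Pdgfa was likewise lower at 12 and 24 h than at 1 and 5 h in both arms, at 2125, 2269, 1089.7 and 1031 untreated and 2913, 1918, 1133 and 1348 with AMG. Hgf ran at 338, 208, 212 and 381 untreated and 355, 158, 240.2 and 330.3 with AMG. With AMG it was lowest at 5 h, while in untreated cells the 5 and 12 h counts lay close together and the length correction put 12 h lowest (log2 -0.26 at 5 h and -0.62 at 12 h, against 1 h). Met ran at 274, 152, 312 and 429.6 in untreated and 279.9, 244, 254 and 266 in AMG-treated cells, where the untreated counts varied widely and the treated ones little. Its lowest untreated value, at 5 h, came from the same library rich in ribosomal protein reads. After the length correction the log2 change from 1 h to 5 h was -0.36 in both arms, in place of -0.84 untreated and -0.20 with AMG. At 12 and 24 h it was then 0.25 and 0.61 untreated and -0.45 and -0.33 with AMG.

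Of the 10 genes, 0 were more than 2-fold apart between the arms at 1 h, 2 at 5 h (Fgf10 and Fgf2), 1 at 12 h and 1 at 24 h (Pdgfc both times), against 22%, 25.9%, 12.8% and 14.1% of the 13498 genes of the first table whose mean reached 10. With the length correction, 1 gene was more than 2-fold apart at 5 h, Fgf10, against 20.6%. Within the untreated arm, 3 genes (Fgf2, Fgfr1 and Pdgfrb) were more than 2-fold from their 1 h level at 5 h, 1 (Fgf2) at 12 h and 2 (Fgf2 and Pdgfa) at 24 h, against 32.3%, 12.4% and 14.6% of all genes. Within the AMG-treated arm the counts were 2 (Fgf10 and Hgf), 4 and 4 (Fgf2, Pdgfa, Pdgfc and Pdgfra at both times), against 21.8%, 34.5% and 32.8%. After the length correction the untreated counts were 1 at 5 h (Fgf2, against 22.3% of all genes) and 2 at 12 h (Fgf2 and Pdgfa, against 12.1%), with Fgfr1 at -0.64 and Pdgfrb at -0.84 on the log2 scale at 5 h. Those of the AMG-treated arm were 3 at 5 h (Fgf2, Fgf10 and Hgf, against 19.7%) and 3 at 12 h (Fgf2, Pdgfa and Pdgfc, against 29.5%), with Pdgfra at 0.96, and at 24 h neither arm changed its count. These time contrasts share their 1 h library within an arm, and the AMG-treated 1 h library is the other of the pair rich in ribosomal protein reads.

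**Figure D2:**
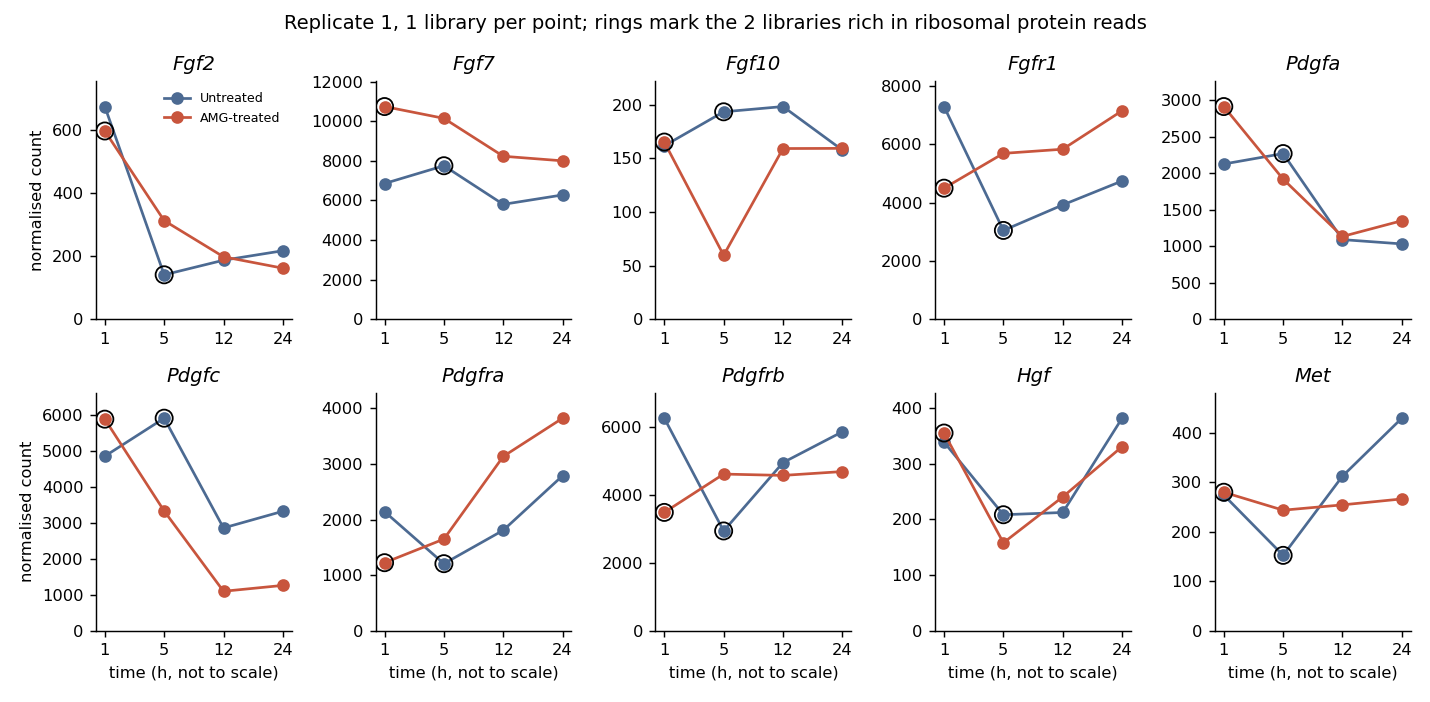
Normalised count (vertical axis, linear, from 0) of the 10 genes in replicate 1 at 1, 5, 12 and 24 h (horizontal axis, evenly spaced) in untreated (blue) and AMG-treated (red) fibroblasts, 1 library per point, with rings on the 2 libraries in which ribosomal protein genes took 7.01% and 5.11% of the reads. The Pdgfc lines separate from 5 h on, the AMG-treated Fgf10 line dips at 5 h alone, and Fgf7 is higher with AMG at each time.

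The wider families at 5 h were read from the same fits, which called 1.24% of all genes without the block and 37.2% with it (17.9% higher and 19.3% lower), and their lists were compiled with results of these data already known. Of 22 FGF ligands, 8 passed the filter on low counts, and the others had at most 16 reads in any library of replicates 2 to 4. None was called without the block (3 had an unadjusted p under 0.05, against 23.1% of all genes), and with it 1 was higher (Fgf7) and 5 lower, which besides Fgf2 and Fgf10 were Fgf5, Fgf11 and Fgf13. Fgf5, a brake on hair growth, was at 15.4, 155 and 7.57 in untreated libraries and 3.82, 36.1 and 0 in AMG-treated ones, highest in replicate 3 in both groups. Fgf13, which acts inside the cell, was at 67.1, 62.7 and 92.5 in untreated and 22.9, 35.3 and 53.1 in AMG-treated libraries. The median log2 fold change of the 8 ligands was -0.91, against -0.018 over all genes tested, and in the replicate 1 pair at 5 h it was 0.076. Low genes enter the -0.91: Fgf5 and Fgf11 were at 0 in AMG-treated replicate 4. Fgf1 was at 9.90 to 26.0 in untreated and 17.2 to 39.4 in AMG-treated libraries.

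Of 10 measured FGF carriers and modulators, the block called 4 higher and 3 lower, against 17.9% and 19.3% of all genes. The heparan sulphate proteoglycans Sdc4 (1.13) and Gpc1 (0.97), which carry FGF at the cell surface, were higher with AMG, as were Sdc1 (0.36) and Flrt3 (0.53), with log2 fold changes in parentheses. Sdc2 (-0.35), Flrt2 (-0.48) and the basement membrane proteoglycan Hspg2 (-0.31) were lower. Sdc4 was at 7696, 5189.5 and 10311 normalised counts in untreated and 20051, 8369 and 25967 in AMG-treated libraries. In the replicate 1 pair at 5 h Sdc4 (-0.0052), Flrt2 (0.59) and Hspg2 (1.15) had the other sign. The list median was -0.18, and 0.68 in that pair. No gene of the list was called without the block (2 had an unadjusted p under 0.05, against 23.1% of all genes).

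All 7 PDGF ligands and receptors were measured and called with the block, 3 higher and 4 lower, against 37.2% of all genes, and 4 of them (Pdgfa, Pdgfra, Pdgfrb and Pdgfrl) had the other sign in the replicate 1 pair at 5 h. Besides the 4 of the 10 genes and Pdgfb these were Pdgfd (756, 2319.8 and 461 against 383, 1645 and 194), a chain that acts on Pdgfrb and was lower with AMG, and Pdgfrl (174, 26.5 and 65.4 against 234, 44.3 and 107), a receptor-like gene that was higher. In replicate 1 Pdgfb was at 82.6 in untreated and 1768 in AMG-treated cells at 1 h and at 16.4 and 446 at 5 h. At 12 h it was at 46.1 and 20.0, and at 24 h at 19.9 and 18.0. AMG-treated cells thus held more at 1 and 5 h and not at 12 or 24 h, and untreated Pdgfb rested on 10 reads at 5 h.

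Of 6 activating proteases and co-receptors of PDGF, Plau, the urokinase, which can cleave the PDGF D chain, was called higher in both fits (2728, 3897 and 4178 against 24811, 12865 and 40328, log2 fold change 2.73 (SE 0.40), adjusted p = 0.0402). The tissue activator Plat, which cleaves the PDGF C chain, was higher with the block alone (4081, 6877 and 2445 against 6895, 8603 and 4025, adjusted p = 0.00298, and 0.422 without it), and the co-receptor Nrp1 was lower with it (-0.36, and 0.55 in the replicate 1 pair). That pair had a log2 ratio of 2.33 for Plau. Of 2 measured genes of HGF activation neither was called, and the protease St14 had the smaller p (log2 fold change 0.63 (SE 0.50), adjusted p = 0.475).

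Of 16 adaptors and effectors that link these receptors to Ras and other pathways, none was called without the block (4 had an unadjusted p under 0.05, against 23.1% of all genes). With it 1 was higher, Grb2 (0.36), and 4 were lower, Frs2 (-0.74), Gab1 (-0.61), Crkl (-0.54) and the ubiquitin ligase Cbl (-1.32). Of all genes the block called 17.9% higher and 19.3% lower. In the replicate 1 pair at 5 h Cbl (1.35) and Crkl (1.13) were more than 2-fold higher with AMG instead. Of 15 genes known as output or feedback of ERK, 4 were called higher in both fits, against 0.97% of all genes called higher without the block: Ier3 (3.32), Phlda1 (1.69), Fosl1 (1.37) and Myc (0.78). The block added Dusp6 (0.76), Spry2 (1.19) and Spry4 (1.38), inhibitors of the cascade, on the higher side and Spry1 (-1.04), Etv5 (-0.40) and Fos (-1.33) on the lower side. With it 7 of the 15 were higher and 3 lower, against 17.9% and 19.3% of all genes. Of these 10 Etv5 alone had the other sign in the replicate 1 pair (0.30). The list median was 0.69 (1.32 in that pair), and that of the adaptors -0.12 (0.50). Like the calls of Fgfr2 and Plau, these 4 ended when replicate 2 or 4 of either group was left out (adjusted p up to 0.2), and those of Plau, Ier3, Phlda1 and Myc also without untreated replicate 3 and in limma without the trend (adjusted p from 0.0691 to 0.0791 there).

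**Figure D3:**
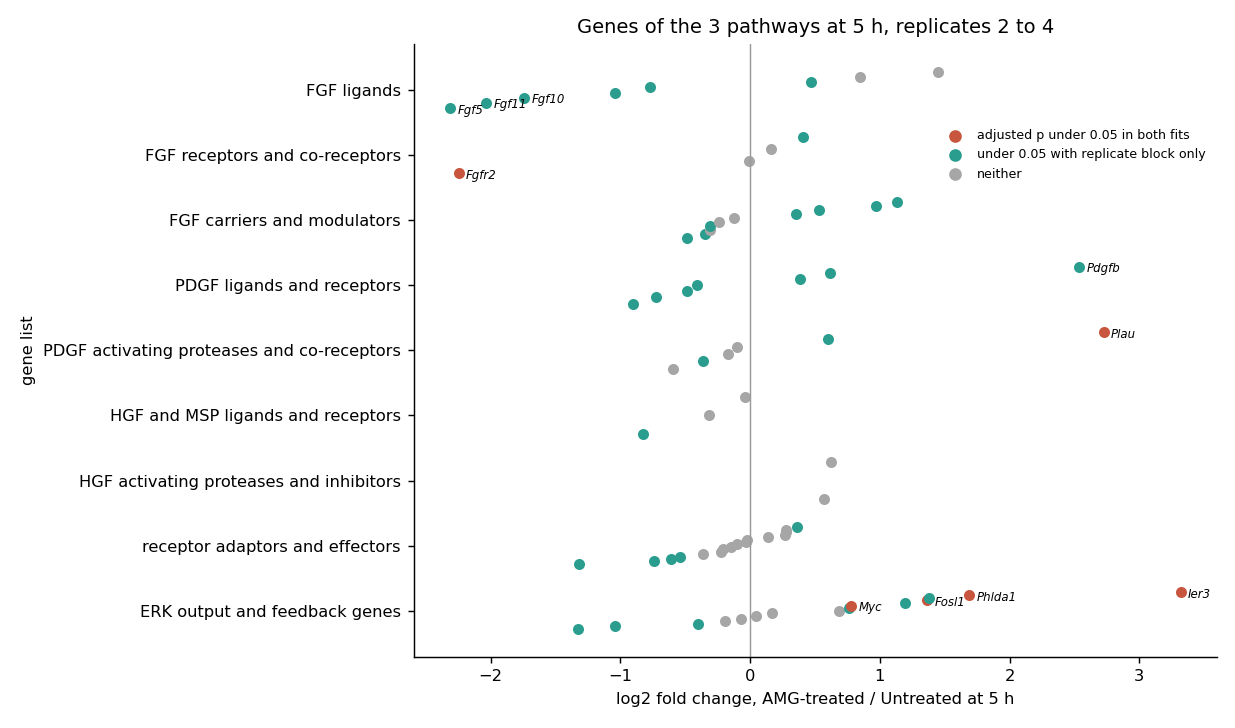
Log2 fold change at 5 h in replicates 2 to 4 (horizontal axis) of each measured gene of 9 lists (vertical axis, points staggered within a list), coloured by whether the adjusted p was under 0.05 in both fits (red), with the replicate block only (green) or in neither (grey). The FGF ligands spread from Fgf5 at -2.31 to Fgf18 at 1.45, and Plau, Pdgfb and Ier3 lie farthest to the right. Fgf5 had a normalised count of 0 in AMG-treated replicate 4, and Fgf18 one of 2.70 in untreated replicate 4.

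The genes most like each of the 10 were taken as the 2 with the highest Pearson r of the log2 normalised count over all 14 libraries, centred within each table, among 12844 genes. For the FGF genes these were Ssfa2 (0.94) and Dos (0.93) for Fgf2, Ppp4r2 (0.92) and Rc3h1 (0.90) for Fgf7, Slc25a12 (0.91) and Prim1 (0.90) for Fgf10 and Nfe2l1 (0.90) and Slc9a5 (0.90) for Fgfr1. Those of the PDGF genes were Ccdc71l (0.95) and Prmt6 (0.94) for Pdgfa, Mvk (0.97) and Fdps (0.95) for Pdgfc, Abca2 (0.96) and Sympk (0.94) for Pdgfra and Sun1 (0.94) and Acsl1 (0.94) for Pdgfrb. Hgf was most like Thsd7a (0.94) and Mbnl2 (0.93), and Met most like Itgbl1 (0.91) and Ccdc65 (0.89). Among the 45 pairs of the 10 genes themselves, r ran from -0.77 (Pdgfa and Pdgfra) to 0.62 (Pdgfra and Pdgfrb). The 14 points share cultures, times and depth, so these values are a description.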

How the data were processed

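Gene expression was measured by stranded poly(A) RNA sequencing with short single-end reads. The authors trimmed adapters, aligned reads to mm10 with TopHat 2.0.13, counted them per gene with HTSeq 0.5.3p3 and divided the counts by DESeq size factors, so the deposited unit is a normalised count (a signal), scaled separately in each of the 2 tables. The gene annotation and the strand setting are not given in the sources used here. Dividing each column by its smallest step gave whole reads for 100.0% of values (tolerance 0.1), and reads per library were summed from these. Levels were compared only within a table. Main test: limma 3.58.1 with trend on log2(normalised count + 1), which understates changes of low genes, 3 against 3 at 5 h, for the 13096 genes whose mean reached 10, two-sided, with Benjamini-Hochberg adjustment over all of them. Alternatives were the replicate number as a block, edgeR 4.0.16 and DESeq2 1.42.0 on recovered reads, other pseudocounts, filters and scalings, a correction for exon length (a smooth fit over the 95.3% of genes tested with a GENCODE length) and leaving out each library. Replicate 1 had no test and was described by 2-fold differences. Replicate numbers were taken as pairing the libraries because deviations from group means correlated in each same-numbered pair (0.65, 0.76 and 0.70) and ran from -0.59 to 0.12 between different numbers. The members and lists were chosen with earlier results of these data known. Every one of the 10 genes is named, and of the other genes of the family and pathway lists those called with or without the block and the one with the smallest p in each list. Error statements from read counts cover counting error only.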

Additional observations from a re-analysis of the deposited data

Results flagged for a closer look

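The time course and the 5 h replicates can be set side by side by sign alone, and in 4 genes all 4 pairs at 5 h had one sign and the only pair at another time had the other, as in 20.6% of all genes. These differences were not tested, since the other times hold 1 library per group. Fgf10 was lower with AMG in 4 of 4 pairs at 5 h, with log2 ratios from -2.43 to -0.97, and its ratio was 0.030 at 1 h and 0.014 at 24 h, both within counting error of 0 (± 0.36 and ± 0.29). Fgfr1 was higher in 4 of 4 pairs at 5 h (0.33 to 0.90) and had a ratio of -0.70 at 1 h (-0.33 after the length correction). Hgf was lower in 4 of 4 pairs at 5 h (-0.99 to -0.40), with ratios of 0.068 at 1 h and 0.18 at 12 h. Before the length correction, and only so, these 2 ratios are stated here to lie within counting error of 0 (± 0.24 and ± 0.24). Pdgfc was lower in 4 of 4 pairs at 5 h (-0.83 to -0.19) and had a ratio of 0.28 at 1 h. The 1 h ratios rest on the AMG-treated library in which ribosomal protein genes took 5.11% of the reads, and the part of that library in them was not tested.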

How the results depend on the processing

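With the replicate block, 4872 genes were called at 5 h in place of 162, and 9 of the 10 growth factor and receptor genes in place of 0. edgeR with the block called 4852 genes and 9 of the 10, the length correction with the block 4477 and 8, DESeq2 1434 and 3, and limma without the trend 80 genes. The fit of 4 replicates with the block called 501 genes and 1 of the 10. Leaving out 1 library in turn gave 1 to 2200 genes and 0 to 2 of the 10, the highest of both without AMG-treated replicate 3 (Fgf10 and Pdgfc). Alternatives chosen after seeing the data were the block without replicate 2 (1419 genes and 3 of the 10), without replicate 3 (6800 and 9) and without replicate 4 (2674 and 5) and the 4 replicates with block and length correction (1161 and 3). At 5 h in replicate 1, the length correction left 1 of the 10 genes more than 2-fold apart in place of 2. Over the 23 alternatives, 9 of the 10 genes kept their direction at 5 h, with adjusted p for Fgf10 from 4e-09 to 0.264. All alternatives reuse libraries of replicates 2 to 4, and the block and limma without the trend leave the log2 fold change as it is. Such fits could not turn a direction. In the replicate 1 pair at 5 h, Fgf2, Pdgfa, Pdgfra and Pdgfrb had the other sign. Met, at -0.037, turned to 0.082 with edgeR, 0.084 with DESeq2, 0.00077 with edgeR and block, 0.13 with the length correction, 0.13 with that and the block, 0.23 with the block without replicate 3, 0.14 in 4 replicates and 0.18 with the length correction there, and ran from -0.34 to 0.52 when 1 library was left out. Hspg2, at -0.31, was 0.057 in 4 replicates with the block and 0.13 with the length correction as well. With 1 library left out, Pdgfrl ran from -0.040 to 1.30 and Nrp1 from -0.84 to 0.13, both turning without untreated replicate 3. In the family and pathway lists the block ended no call made without it. It added the calls described above as made with the block alone, such as those of Sdc4, Pdgfb and Dusp6. It also added the calls of 14 of 29 marker genes tested, among them Col1a1 and Col3a1 (lower) and Twist2 (higher). The fibroblast marker Pdpn was called higher in both fits. Of all genes, 37.2% were called with the block and 1.24% without it. Of the 40 log2 ratios of replicate 1, the length correction moved 22 by more than their counting error, another scaling (upper quartile) 5 and other pseudocounts none. The causes of these shifts were not tested. The 5 h test rests on 3 libraries per group and the other times on 1, which limits what any count can show.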
